A study of Macaca mulatta with 8 samples.

Results

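ASNS and DDIT3 are 2 genes known as targets of ATF4, a transcription factor of the integrated stress response. They were taken as the genes whose symbol the platform annotation gives, alone, to a probe set. That found 1 probe set for each, so 2 of 14132 measured genes. The arrays hold mural granulosa cells of rhesus macaques (Macaca mulatta). The 4 arrays before hCG (PM-GC) come from follicles under follicle-stimulating hormone (FSH) only. The 4 arrays after hCG (VVM-GC) come from follicles that had FSH and then human chorionic gonadotropin (hCG), the ovulatory stimulus, in the animal. FSH is therefore common to both groups. The design text calls the cells mural, while the source field of each array mentions cumulus-oocyte complexes, and the design text was followed. The sources used here do not give age, the animal behind each array or the time from hCG to collection. RNA was amplified in repeated cycles before labelling, per the labels, and each value is a log2 intensity after robust multi-array average (RMA).

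When amino acids run short, or when unfolded proteins build up in the endoplasmic reticulum (ER), kinases phosphorylate the translation factor eIF2. General protein synthesis then slows while the ATF4 messenger is translated more. ATF4 therefore acts largely through its protein level, which an array does not measure. ASNS encodes asparagine synthetase, which makes asparagine from aspartate with nitrogen from glutamine. DDIT3 encodes CHOP, a bZIP protein that pairs with C/EBP factors, prevents them from binding their usual sites, and under lasting stress promotes cell death. Both genes were chosen by their difference between these 2 groups of arrays, which ran in opposite directions, so their values are described here without a test.

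ASNS was higher after hCG. Its log2 intensity was 5.07, 5.38, 6.27 and 5.40 in arrays 1 to 4 before hCG. After hCG it was 6.93, 6.25, 7.38 and 6.33 in arrays 1 to 4. Array 3 before hCG stood above the other arrays of its group, and it exceeded array 2 after hCG by 0.019, so the groups overlapped by that pair. The means were 5.53 ± 0.51 before and 6.72 ± 0.53 after hCG (SD, n = 4), a difference of 1.19 (SE 0.37) and 2.28-fold on the intensity scale. In linear intensity this was 48.7 ± 19.3 before and 111 ± 42.2 after hCG.

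DDIT3 was lower after hCG. Its log2 intensity was 9.91, 9.53, 8.93 and 9.87 in arrays 1 to 4 before hCG. After hCG it was 8.85, 8.40, 8.19 and 7.24 in arrays 1 to 4. The groups did not overlap, but the lowest array before hCG, array 3, and the highest after hCG, array 1, were only 0.080 apart. Among all genes, 15.4% were lower after hCG with groups that did not overlap. The means were 9.56 ± 0.45 before and 8.17 ± 0.68 after hCG (SD, n = 4), a difference of -1.39 (SE 0.41) and 2.62-fold. In linear intensity this was 781 ± 219 before and 311 ± 129 after hCG.

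**Figure D1:**
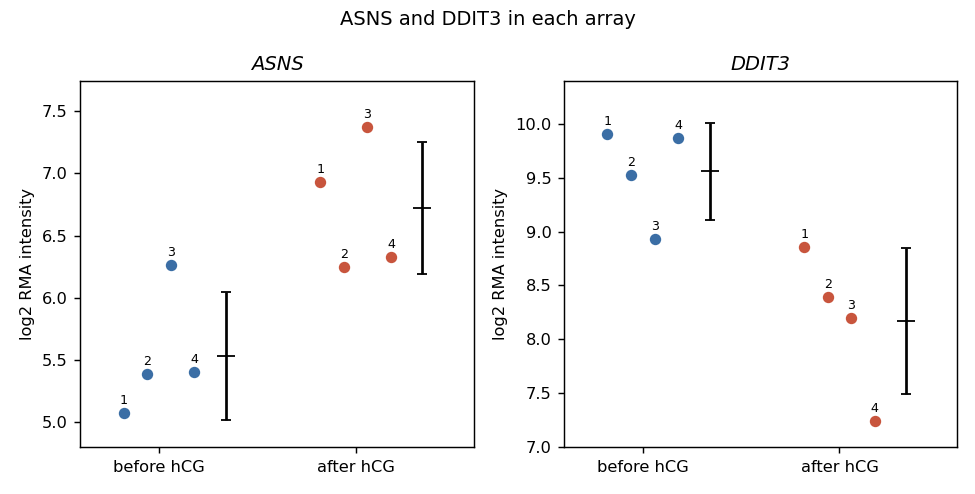
Log2 RMA intensity of ASNS and DDIT3 in each array, with the replicate number beside each point and the mean ± SD of each group as black bars (n = 4). Array 3 before hCG was the highest of its group for ASNS (6.27) and the lowest for DDIT3 (8.93), and it is the array that lies nearest to the other group in both panels.

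Array 3 before hCG was thus the nearest of its group to the arrays after hCG for both genes. Without it the difference was 1.44 for ASNS and -1.60 for DDIT3, and the groups of ASNS were then 0.85 apart. Within the group after hCG, ASNS was highest in array 3 and lowest in array 2, and DDIT3 was highest in array 1 and lowest in array 4. Both genes lay above their group mean in arrays 1 and 3 and below it in array 4, and array 2 was below for ASNS and above for DDIT3. The smallest differences came from other omissions. Without array 3 after hCG the difference of ASNS was 0.97, and without array 4 after hCG that of DDIT3 was -1.08. Both genes varied more within groups than most genes of like signal. The pooled SD was 0.52 for ASNS and 0.58 for DDIT3, larger than that of 94.2% and 94.4% of the 1000 genes nearest in mean signal.

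In size, 741 genes (5.24%) rose at least as far as ASNS and 299 (2.12%) fell at least as far as DDIT3, ASNS and DDIT3 themselves counted. The array medians, taken over all probe sets, ranged from 5.45 to 5.54. The mean ASNS signal before hCG, 5.53, lay at that level. Arrays 1, 2 and 4 before hCG lay below it (5.07, 5.38 and 5.40) and array 3 above it (6.27). Each array after hCG also lay above it. Beside the 14132 genes alone the signal was lower in rank. ASNS exceeded 20.8%, 25.1%, 40.6% and 25.0% of genes in arrays 1 to 4 before hCG. After hCG it exceeded 51.1%, 40.0%, 57.2% and 42.0% of genes in arrays 1 to 4. With 32 added to each intensity the difference was 0.81 for ASNS and -1.29 for DDIT3.

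**Figure D2:**
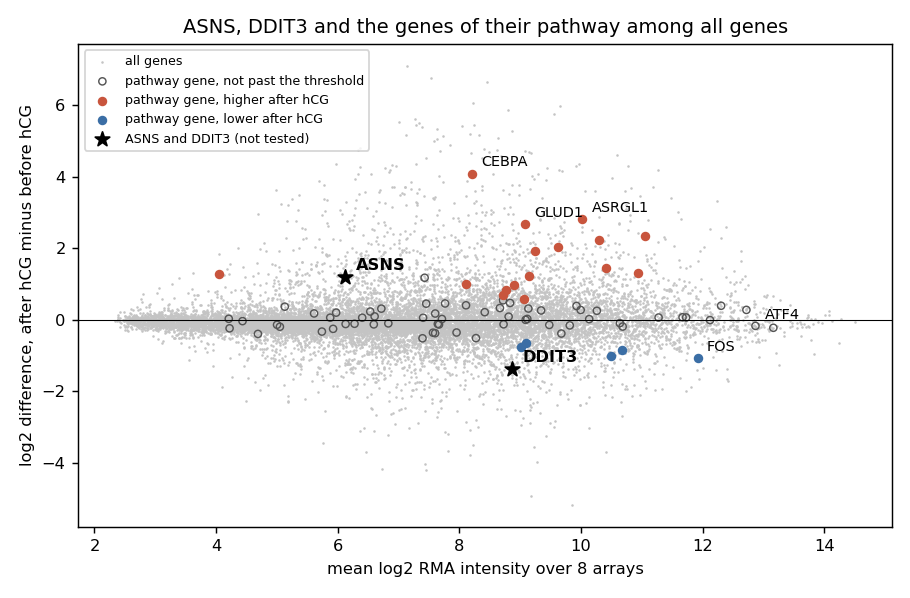
Log2 difference, after hCG minus before hCG, against the mean log2 intensity over 8 arrays for 14132 genes (grey), with ASNS and DDIT3 as stars and 82 genes of their pathway as circles. ASNS lies at 1.19 and DDIT3 at -1.39, both within the cloud of changed genes, while ATF4 lies near 0.

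The other genes of the pathway were tested in the fit over all genes with limma and Benjamini-Hochberg adjustment, and a gene passed with an adjusted p under 0.05. In all, 8 lists with 122 distinct genes were examined, of which 82 could be matched to a measured gene. Of the 82, 16 (19.5%) rose, 5 (6.10%) fell and 61 did not pass. Over all genes 11.3% rose and 12.5% fell. The median difference was 0.06 over the 82 genes and -0.09 over all genes. The lists describe the pathway, and no list was tested as a set.

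The upstream part of the pathway holds ATF4 and the genes of eIF2 signalling. ATF4 itself was 13.10, 12.65, 13.03 and 13.04 before hCG and 12.96, 12.77, 12.87 and 12.53 after hCG. The groups overlapped, and the difference of -0.17 (SE 0.14) did not pass (adjusted p = 0.419). Of 10 measured genes of eIF2 signalling, none rose, 1 fell and 9 did not pass (median 0.01). With the average of all probe sets of a gene in place of the brightest one, 2 of these 10 genes rose and 1 fell. EIF2AK3, which encodes the ER kinase PERK, differed by 0.31 (SE 0.19, adjusted p = 0.275). EIF2S1, the eIF2 subunit that is phosphorylated, differed by 0.27 (adjusted p = 0.34). Of its 4 probe sets 1 rose, by 2.11, and with the average of all probe sets EIF2S1 rose by 0.57 (adjusted p = 0.0049). The other gene that rose in that way was EIF2S2, another eIF2 subunit, named after its values were seen. Its brightest probe set differed by -0.19, 1 of its 5 probe sets rose, by 2.39, and the average rose by 0.44. The gene that fell was EIF2B3, a subunit of the eIF2 exchange factor, by 0.77 (SE 0.20, adjusted p = 0.0218). That call was lost without array 3 or array 4 before hCG (adjusted p = 0.0583 and 0.0597). EIF2AK4, the kinase that senses uncharged tRNA, was not analysed here.

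Around ASNS, 4 (50.0%) of 8 measured genes of asparagine, glutamine and glutamate metabolism rose, none fell and 4 did not pass (median 0.32). Over all genes 11.3% rose and 12.5% fell. ASRGL1, an asparaginase that breaks down asparagine, rose from values of 8.42, 8.46, 8.92 and 8.69 to 11.25, 11.50, 11.17 and 11.77. The groups were far apart, with a difference of 2.80 (SE 0.17, adjusted p = 5.63e-06), and both of its probe sets rose. GLUD1, a mitochondrial enzyme that interconverts glutamate and 2-oxoglutarate, rose from 8.56, 7.90, 7.20 and 7.32 to 10.65, 10.58, 9.89 and 10.55. Its difference was 2.67 (SE 0.30, adjusted p = 0.000203), but its other probe set differed by -0.23 and the average of both rose by 1.22. GLUL, glutamine synthetase, which supplies the nitrogen donor of ASNS, rose from 9.82, 9.61, 9.87 and 9.47 to 11.16, 11.58, 11.12 and 10.69 (difference 1.44, SE 0.19). Of the 5 probe sets of GLUL 2 rose and 3 did not pass, and their average rose by 0.37. GFPT1, which uses glutamine to start hexosamine synthesis, rose by 0.58 (adjusted p = 0.0206), and the call was lost without array 1 or 2 before hCG or array 4 after hCG (adjusted p = 0.0596, 0.052 and 0.0536).

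Of 7 measured enzymes of amino acid synthesis that ATF4 is known to induce, none rose and 1 (14.3%) fell. The other 6 did not pass (median -0.26), beside 11.3% higher and 12.5% lower over all genes. PHGDH, the first enzyme of serine synthesis, was 8.13, 8.72, 8.47 and 8.80 before and 7.83, 7.51, 8.74 and 7.99 after hCG. Its groups overlapped and its difference of -0.52 (SE 0.26) did not pass (adjusted p = 0.183), but without array 3 after hCG it fell by 0.76 (adjusted p = 0.0204). SHMT2, which makes glycine in mitochondria, differed by 0.17 (adjusted p = 0.475), and 1 of its 2 probe sets rose, by 0.54. ALDH18A1, an enzyme of proline synthesis, fell by 1.003 (SE 0.27, adjusted p = 0.0255). The call was lost without array 2 or 3 before hCG or array 1 or 2 after hCG (adjusted p of 0.0562 to 0.0698). PSAT1, PSPH and MTHFD2 were not analysed here.

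Of 10 amino acid transporters, 3 (30.0%) rose, none fell and 7 did not pass (median 0.04). The share over all genes was 11.3% higher and 12.5% lower. SLC36A4, a carrier of tryptophan and proline, rose from 8.30, 8.64, 8.51 and 7.69 to 10.50, 10.38, 9.504 and 10.49 (difference 1.93, SE 0.27, adjusted p = 0.000733), with both probe sets higher. SLC7A1, a carrier of cationic amino acids, rose by 1.27 (SE 0.32) from a signal below the array medians. The difference of SLC7A1 was 0.68 with 16 added to each intensity, and 0.47 and no longer past the threshold with 32 added (adjusted p = 0.0541). Without array 1 after hCG it was 1.12 (adjusted p = 0.0505). SLC1A4, a carrier of neutral amino acids, rose by 0.68 (adjusted p = 0.0166), but only 1 of its 4 probe sets rose, and their average did not pass (adjusted p = 0.28), nor did the gene after quantile normalization (adjusted p = 0.0592). SLC7A11 and SLC7A5, the cystine and leucine carriers often read as ATF4 targets, differed by 0.02 and 0.06 (adjusted p = 0.965 and 0.784). The mean signal of SLC7A11, 4.20 before and 4.22 after hCG, lay below the array medians, so a change could be missed. Of 7 genes that charge or export tRNA none rose and 1 (14.3%) fell, beside 11.3% higher and 12.5% lower over all genes. The other 6 did not pass (median 0.06). The gene that fell was XPOT, the tRNA exporter, by 0.65 (SE 0.15, adjusted p = 0.0102).

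**Figure D3:**
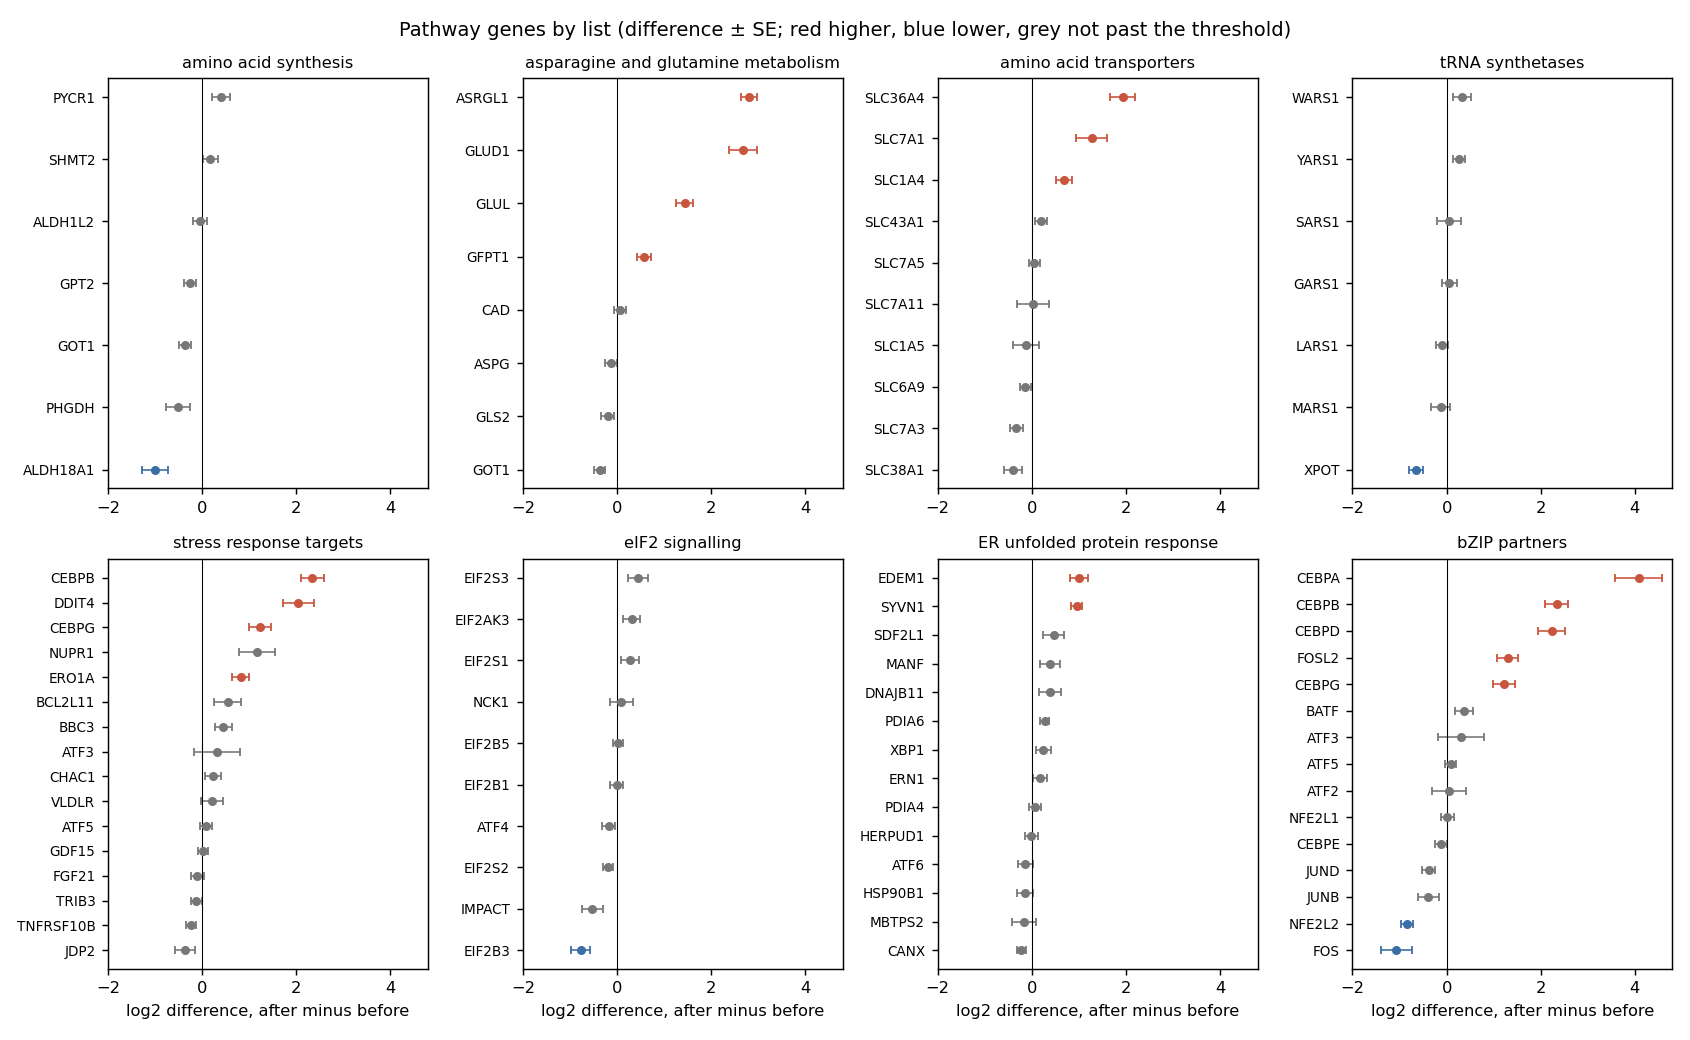
Log2 difference, after hCG minus before hCG, with its SE for each measured gene of the 8 pathway lists. Red genes rose, blue genes fell and grey genes did not pass. The red points of the asparagine and glutamine list reach 2.80 and those of the bZIP list 4.08. The eIF2 list holds 1 blue and 9 grey points, beside 11.3% higher and 12.5% lower over all genes.

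Of 16 measured stress response targets, genes that ATF4 induces alone or with DDIT3, 4 (25.0%) rose, none fell and 12 did not pass (median 0.27), beside 11.3% higher and 12.5% lower over all genes. Of the 4, CEBPB and CEBPG are also in the bZIP list. TRIB3, a pseudokinase that restrains ATF4 and CHOP, was 6.32, 6.22, 6.003 and 6.22 before and 5.90, 6.04, 6.02 and 6.31 after hCG. Its groups overlapped, with a difference of -0.12 (SE 0.13, adjusted p = 0.526). CHAC1, which degrades glutathione and is often used as a readout of ATF4 and CHOP, differed by 0.23 (adjusted p = 0.367). GDF15, a secreted stress factor, differed by 0.02 (adjusted p = 0.916). ATF3, a bZIP repressor, was 9.94, 9.38, 7.77 and 8.83 before and 10.20, 9.68, 8.74 and 8.53 after hCG, with overlapping groups (difference 0.31, SE 0.49, adjusted p = 0.688). Without array 3 before hCG the difference of ATF3 was -0.09. None of the 3 probe sets of ATF3 passed, with differences of -0.38 to 0.31 and an average of -0.04. DDIT4, an inhibitor of the growth kinase mTORC1, rose from 8.38, 9.24, 8.59 and 8.23 to 10.82, 10.35, 9.95 and 11.48 (difference 2.04, SE 0.33, adjusted p = 0.00167). ERO1A, an ER oxidase that CHOP is known to induce, rose by 0.82 (SE 0.18, adjusted p = 0.00968), although only 1 of its 3 probe sets rose and their average did not pass (adjusted p = 0.268). PPP1R15A, SESN2 and VEGFA were not analysed here.

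Of 15 bZIP genes, among them the C/EBP factors that CHOP pairs with, 5 (33.3%) rose, 2 (13.3%) fell and 8 did not pass (median 0.08), beside 11.3% and 12.5% over all genes. CEBPA rose from 6.27, 6.39, 6.16 and 5.83 to 11.22, 10.23, 8.54 and 10.98. The difference of CEBPA was 4.08 (SE 0.50, adjusted p = 0.000346), all 3 of its probe sets rose, and array 3 after hCG was the lowest of its group. CEBPB rose from 10.09, 10.13, 9.82 and 9.48 to 12.52, 12.36, 11.48 and 12.51 (difference 2.34, SE 0.25, adjusted p = 0.000152), with both probe sets higher. CEBPD rose from 9.79, 8.99, 8.64 and 9.33 to 11.24, 11.67, 11.94 and 10.83 (difference 2.23, SE 0.29, adjusted p = 0.000476). CEBPG, a short C/EBP protein that pairs with ATF4, rose by 1.22 (SE 0.23, adjusted p = 0.00387), with 1 of its 2 probe sets past the threshold. CEBPE, another C/EBP factor, was named after its values were seen and differed by -0.11 (adjusted p = 0.558). The groups did not overlap for CEBPA, CEBPB, CEBPD or CEBPG. Among all genes tested, 11.8% were higher after hCG with groups that did not overlap.

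Among the other bZIP genes, FOSL2 rose by 1.30 (SE 0.23, adjusted p = 0.00255) with both probe sets higher. NFE2L2, the regulator of antioxidant genes, fell by 0.84 (SE 0.13, adjusted p = 0.00168). Its 5 probe sets disagreed, with 2 lower and 1 higher, and their average did not pass (adjusted p = 0.577). FOS, an immediate early gene, fell by 1.07 (SE 0.33, adjusted p = 0.0434) with overlapping groups, and the call was lost on leaving out any array except array 4 after hCG (adjusted p of 0.0503 to 0.107). It was also lost after median centring (adjusted p = 0.0573) and with 16 added to each intensity (adjusted p = 0.0597). JUN was not analysed here.

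**Figure D4:**
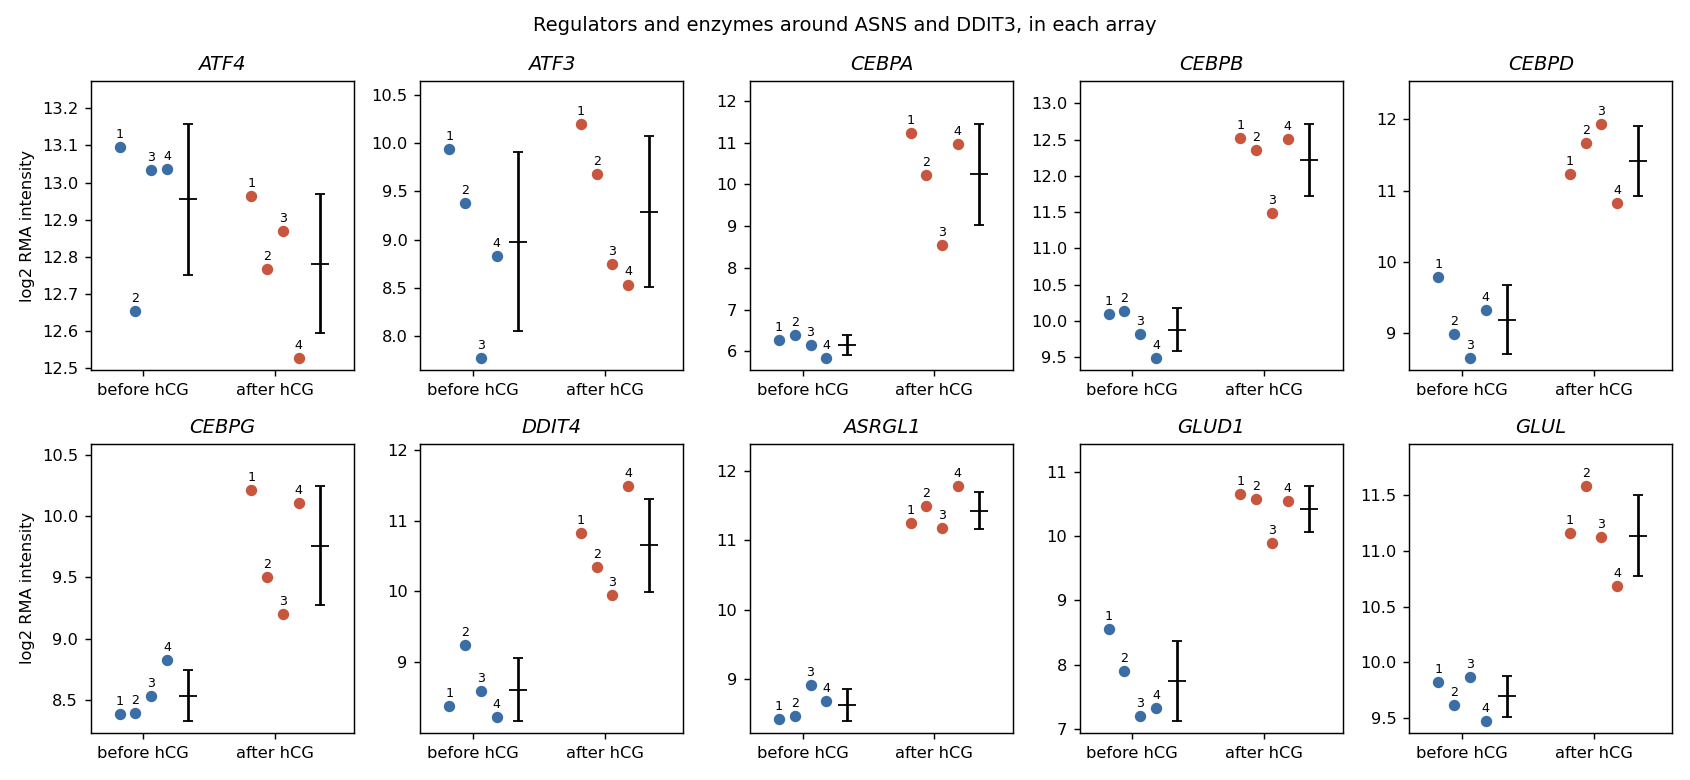
Log2 RMA intensity of 10 genes around ASNS and DDIT3 in each array, with the replicate number beside each point and the mean ± SD of each group as black bars (n = 4); each panel has its own axis. ATF4 and ATF3 overlap between the groups, whereas every array after hCG lies above every array before hCG for CEBPA, CEBPB, CEBPD, CEBPG, DDIT4, ASRGL1, GLUD1 and GLUL.

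The ER arm of the stress response can also induce DDIT3. Of its 14 measured genes of the unfolded protein response, 2 (14.3%) rose, none fell and 12 did not pass (median 0.21). Over all genes 11.3% rose and 12.5% fell. With 16 or 32 added to each intensity, 3 of the 14 rose and 1 fell. PDIA6, a disulfide isomerase named after its values were seen, differed by 0.27 in its brightest probe set and did not pass, but its other 2 probe sets rose, by 0.55 and 0.88. SYVN1, a ubiquitin ligase of ER-associated degradation, rose by 0.96 (SE 0.11, adjusted p = 0.000305). EDEM1, which hands misfolded glycoproteins to degradation, rose by 0.996 (SE 0.19, adjusted p = 0.00442), but the average of its 2 probe sets did not pass (adjusted p = 0.0652). XBP1, the factor activated by splicing of its messenger, differed by 0.25 (adjusted p = 0.327), ATF6 by -0.13 (adjusted p = 0.61) and HERPUD1, an ER stress gene, by -0.01 (adjusted p = 0.964). HSPA5, the main ER chaperone, was not analysed here.

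The genes whose profile over the 8 arrays was most like that of each member were found by the root mean square difference of log2 values, each gene centred on its own mean. For ASNS they were PHYHD1 (0.27), LOC698215 (0.28), RECK (0.28), NMI (0.29) and PGM3 (0.30). These 5 differed between the groups by 0.80 to 1.55, and the 2 probe sets of RECK moved in opposite directions (1.39 and -1.45). Averaged over its 3 probe sets, LOC698215 rose by 0.53. For DDIT3 they were APOA1 (0.26), CNOT8 (0.28), NUFIP1 (0.29), LOC708264 (0.31) and C7H15orf39 (0.31), with differences of -1.47 to -1.04. No gene of the pathway lists was among them. The likeness rests mostly on the shared difference between the groups: with each group centred on its own mean, 2 of the 5 genes remained for ASNS and none of the 5 for DDIT3.

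The labelled cell type was checked by its markers. INHA, the inhibin alpha subunit, was 14.07 before and 13.50 after hCG, and FST, follistatin, was 11.94 and 12.26. FST did not pass (adjusted p = 0.166). INHBA, the inhibin beta A subunit, fell by 1.65 (SE 0.15, adjusted p = 6.71e-05). Of 11 measured granulosa markers 10 fell and 1 did not pass, and their summed linear intensity ranged from 36207 to 43964 before and 20644 to 24899 after hCG. In bulk samples, fewer cells of a type and less RNA per cell cannot be told apart. Beside the counts of markers, 11.3% of all genes rose and 12.5% fell. Of 4 erythrocyte markers 2 (50.0%) fell. HBA fell by 1.47 and ALAS2 fell by 0.78, and the summed intensity went from 1683 to 2333 before to 352 to 1505 after hCG. Both calls were lost on leaving out single arrays, among them array 3 before hCG (adjusted p = 0.0741 for HBA and 0.0539 for ALAS2). The call of HBA was also lost when 32 was added to the intensities (adjusted p = 0.0605), and that of ALAS2 with its probe sets averaged (adjusted p = 0.085). Of 7 leukocyte markers 1 passed: CSF1R fell by 2.09, with sums of 1292 to 1483 before and 514 to 1164 after hCG. Of 8 oocyte markers 1 rose, KIT by 3.07, while the egg coat genes ZP4 and ZP1 did not pass (adjusted p = 0.223 and 0.25), and the sums were 724 to 924 and 1319 to 2328. Of 6 theca and stroma markers 5 did not pass (sums 655 to 759.8 and 609 to 1143). The gene that passed, CYP17A1, an enzyme of androgen synthesis, was named after its values were seen and fell by 0.47 (adjusted p = 0.0303), and DCN passed as higher only without array 2 after hCG (adjusted p = 0.00168). Of 8 endothelial markers none passed (sums 411 to 519 and 376 to 979), but VWF did so when array 3 after hCG was left out (adjusted p = 0.0217). No marker is listed at 0, and the table carries no detection calls. The part of these cells in the differences of ASNS and DDIT3 was not tested.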

How the data were processed

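The authors deposited linear intensity values. Per the submitters' processing notes, Affymetrix Expression Console and RMA produced them, in versions that the sources used here do not give. Log2 was taken and nothing else was changed. Of 52865 rows, 158 array and reporter controls were left out. Of the 52707 probe sets left, GEO's platform annotation gives 24956 a single symbol, 361 several and 27390 none; symbols were updated through the RefSeq gene table, which holds the gene ID of 24616 of these. Each of 14132 genes is represented by its probe set with the highest mean. In R 4.3.3, lmFit and eBayes of limma 3.58.1 gave the difference after hCG minus before hCG, and p-values were adjusted by Benjamini-Hochberg over all genes, or over all probe sets where probe sets are counted; the procedure was tested on simulated data. An adjusted p under 0.05 passed. SEs are limma's, except that those of ASNS and DDIT3 come from their own 8 values.

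The members and lists were chosen with earlier results of these data known. Named genes are the 2 members, 28 index genes of the pathway (18 measured), up to 4 genes per list and direction, the 3 markers per list with the highest signal and the 5 nearest profiles. Genes called not analysed here had no probe set with their symbol alone. The labels do not say whether the arrays come from separate animals, so p-values measure only the spread between these samples, which may be technical. Arrays of one group correlated over all probe sets by 0.974 to 0.988 (Pearson) and arrays of different groups by 0.935 to 0.956. The number of arrays limits the precision. Alternatives were constants added before log2, quantile normalization, median centring, a low-signal filter, the average of all probe sets, a replicate block, array weights and leaving out each array.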

Additional observations from a re-analysis of the deposited data

Results flagged for a closer look

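Single arrays stood apart from the other 3 of their group, by Dixon's ratio of the gap to the range at its 95% critical value, in 13 of 130 sets of 4 values (each named gene in each group). Chance flags about 1 in 20 such sets. ASNS and DDIT3 were not among them.

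Array 3 after hCG was the low one for CEBPB (11.48, the others 12.36 to 12.52), GLUD1 (9.89, the others 10.55 to 10.65) and SLC36A4 (9.504, the others 10.38 to 10.50). In that array the 3' minus 5' difference of ACTB, often read as a measure of RNA integrity, was 5.18, the highest of the 8 arrays, which ranged from 4.47. Array 3 after hCG also had the highest ASNS value (7.38). The part of RNA quality in these values was not tested. Array 2 after hCG was low for EIF2AK3 (6.54, the others 6.96 to 6.995) and ATF6 (7.53, the others 7.62 to 7.63) and high for INHA (13.77, the others 13.37 to 13.43). Array 4 after hCG was low for EIF2B3 (8.11, the others 8.75 to 8.86) and LOC708264 (4.76, the others 5.74 to 5.92). LOC708264 was chosen for a profile like that of DDIT3, which was also lowest of its group in that array (7.24).

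Array 3 before hCG was high for PHYHD1 (8.02, the others 6.59 to 6.79) and NMI (9.08, the others 8.44 to 8.54), both of which were chosen for a profile like that of ASNS, and low for SHMT2 (7.30, the others 7.56 to 7.61). Array 2 before hCG was low for ATF4 (12.65, the others 13.03 to 13.10), and array 1 before hCG was high for FOSL2 (11.05, the others 10.003 to 10.07).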

How the results depend on the processing

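The differences of ASNS and DDIT3 kept their direction under every alternative that gave a value. ASNS ranged from 0.81 to 1.23 with all arrays and from 0.97 to 1.44 on leaving out 1 array. DDIT3 ranged from -1.50 to -1.29 and from -1.62 to -1.08. The low-signal filter leaves out ASNS, so it gave no value there. The groups of ASNS overlapped in all of these except without array 3 before hCG or array 2 after hCG. The count of genes past the threshold was 3063 to 3540 with all arrays and all genes, 2512 of 7066 genes with the low-signal filter, and 2699 to 3348 without 1 array. The count of pathway genes that rose, 16, was 15 to 17 in all of these. The count that fell, 5, was 4 to 7 with all arrays, except 3 with the replicate block, and 2 to 6 on leaving out 1 array, the lowest being without array 3 before hCG.

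With the replicate block, 3063 genes passed and EIF2B3 and FOS did not (adjusted p = 0.0707 and 0.0766). Nothing in the labels says that equal numbers pair arrays, so the numbers were not taken as pairs. The deviations of arrays with equal numbers correlated by 0.0111, 0.165, 0.0499 and -0.0261, and only array 2 before hCG matched its own number best. These correlations run over all genes at once, so they cannot decide whether equal numbers are pairs. Of the 5 genes nearest in profile to ASNS, 3 remained after quantile normalization and 2 with each group centred on its own mean; for DDIT3, 0 remained with the latter. Over 63 other named genes, the calls were kept in 471 values with all arrays, lost in 15 and gained in 5, and in 1 the call was lost with a change of sign to a value near 0: the average of the probe sets of RECK differed by -0.031 (adjusted p = 0.911). Without 1 array they were kept in 470, lost in 29 and gained in 5. ASNS is limited by its low signal before hCG, and 4 arrays a group limit all calls.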

Other observations

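ATF3 and DDIT3, both stress-induced bZIP genes, followed the same order over the 4 arrays after hCG, from array 1 (10.20 and 8.85) through array 2 (9.68 and 8.40) and array 3 (8.74 and 8.19) to array 4 (8.53 and 7.24). Before hCG array 1 was the highest for both (9.94 and 9.91) and array 3 the lowest for both (7.77 and 8.93). Arrays 2 and 4 before hCG were in opposite order (ATF3 9.38 and 8.83, DDIT3 9.53 and 9.87). The order after hCG was not particular to this pair. APOA1, CNOT8 and LOC708264, chosen for a profile like that of DDIT3, also followed it, and so did COL1A2. APOA1 shared the order of DDIT3 before hCG as well. The ATF3 values are those of the brightest of its 3 probe sets. Between the groups, ATF3 differed by 0.31 and DDIT3 by -1.39. This was noticed after the values were seen and was not tested.

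The genes next to each member in the RefSeq annotation of the macaque reference assembly were read beside them, up to 3 on each side. Near DDIT3, MARS1, the methionyl-tRNA synthetase next to it, differed by -0.13 (adjusted p = 0.696), ARHGAP9 by -0.04 (adjusted p = 0.871) and GLI1 by -0.30 (adjusted p = 0.087). Near ASNS, MIOS, a subunit of the amino acid sensing complex GATOR2, fell by 0.70 (SE 0.20, limma adjusted p = 0.0346). COL28A1 differed by -0.20, SDHAF3 by -0.50 and DLX5 by 0.01, and none of the 3 passed (adjusted p = 0.332, 0.145 and 0.954). The probes were not placed on this assembly.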
